A study of Mus musculus with 4 samples.

Results

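Collagens, laminins and integrins are the structural chains of the extracellular matrix and the cell-surface receptors that hold cells to it. They were examined in RNA-seq of polyadenylated RNA from mouse cerebral cortex at embryonic day 15, in 2 control libraries and 2 Lhx2 cKO libraries. The titles write the control libraries as WT. Lhx2 encodes a LIM-homeodomain transcription factor of cortical progenitors, and cKO is read here as conditional knockout. The Cre driver, the Lhx2 allele, the sex of the embryos and whether embryos were pooled are not given in the sources used here, so p-values measure the spread between these libraries, which may be technical. Members were taken by gene symbol: every gene named as a collagen alpha chain, a laminin alpha, beta or gamma chain, or an integrin alpha or beta chain. The leucocyte integrins Itgal, Itgam and Itgb2, the integrin-binding proteins and Itgbl1 were left out. This gave 61 of the 13289 genes in the deposited table, made up of 32 collagens, 9 laminins and 20 integrins.

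Collagen chains wind around each other into rods. The fibrillar collagens assemble into tensile fibres, and type IV collagen forms the network of basement membranes, the sheets that underlie the pia and wrap the vessels of the brain. Laminins are cross-shaped assemblies of an alpha, a beta and a gamma chain that build the other network of the basement membrane. Integrins pair an alpha with a beta chain and tie both networks to the cytoskeleton. In the developing cortex the end feet of radial glia, the stem cells of the tissue, are anchored to the pial basement membrane, and the laminin receptors containing Itga3, Itga6 and Itgb1 are known from these end feet.

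The libraries held 22294237 to 24609627 counts over the genes analysed, so that 3 counts, taken as the floor of detection, stand at 0.120 to 0.132 counts per 1000000 counts (CPM, scaled by TMM factors throughout). The floor covers counting error only. The targeted gene, Lhx2, was at 316 and 287 CPM in control 1 and 2 and at 239 and 247 CPM in Lhx2 cKO 1 and 2. Its log2 fold change in Lhx2 cKO against control was -0.31 (SE 0.0976, edgeR adjusted p 0.0191), with the level at 80.7% of control. Which exons are deleted is not given in the sources used here, and reads from outside them would not check the deletion. Neuronal markers were present in every library, and all 10 listed pan-neuronal genes were measured, at a summed 5858 to 6034 CPM in control and 6115 to 6392 CPM in Lhx2 cKO. Of these, Syt1 and Stmn2 were called higher and Rbfox3 and Neurod6 lower. The 11 radial glia markers summed to 855 to 902 CPM in control and 847 to 862 CPM in Lhx2 cKO, with 1 called higher and 3 called lower. The radial glia gene called higher was Slc1a3, and those called lower were Pax6, Sox9 and Nes. Of 7 markers of oligodendrocyte precursors 6 rose, and their sum was 50.1 to 56.9 CPM in control and 94.6 to 105 CPM in Lhx2 cKO. The shares called were 40% of pan-neuronal, 36.4% of radial glia and 85.7% of oligodendrocyte precursor markers, beside 20.8% of all genes tested. Only 1 of 8 choroid plexus markers and 5 of 16 markers of meningeal fibroblasts were analysed here, so these cells are poorly covered.

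A gene is said to be called, or to have risen or fallen, when its adjusted p in edgeR's quasi-likelihood test was under 0.05 over all 13288 genes tested. All 61 members were tested, but the deposited table holds no gene with fewer than 102 counts over the 4 libraries, so chains with low counts are not among them. In Lhx2 cKO 17 members rose and 6 fell, and 38 were not called. The 23 calls are 37.7% of the members, beside 20.8% of all genes tested. In the 2 directions the members' shares were 27.9% higher and 9.84% lower, beside 11.6% and 9.17% of all genes. Changes of at least 1.5-fold were called for 19 members, where the share over all genes was 8.88%, and of at least 2-fold for 9 members, where it was 3.36%. The libraries of the 2 groups did not overlap for 39 members, and for 59.3% of all genes tested. All 23 members called here also had an adjusted p under 0.05 in the authors' deposited table, and no other member did.

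Most calls among collagens were rises, laminins had as many rises as falls, and integrins had more rises than falls. Among collagens 10 rose (31.2%) and 2 fell (6.25%), with a median log2 fold change of 0.31 over the 32 genes. Among laminins 2 rose (22.2%) and 2 fell (22.2%), with a median of 0.005 over 9 genes. Among integrins 5 rose (25%) and 2 fell (10%), with a median of 0.009 over 20 genes. Over all genes tested 11.6% rose and 9.17% fell. The median over all genes tested was 0.003. The collagen median was 0.20 without control 2, and the integrin median lay between -0.13 without Lhx2 cKO 2 and 0.13 without Lhx2 cKO 1. Without Lhx2 cKO 1, and likewise without Lhx2 cKO 2, 4 integrins were called. The difference in direction between families was not tested. Summed over its genes, the collagen family took 835 and 892 CPM in control and 949 and 1021 CPM in Lhx2 cKO, and the laminin family 286 and 290 CPM in control and 256 and 273 CPM in Lhx2 cKO. The integrins took 402 and 409 CPM in control and 418 and 464 CPM in Lhx2 cKO.

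**Figure D1:**
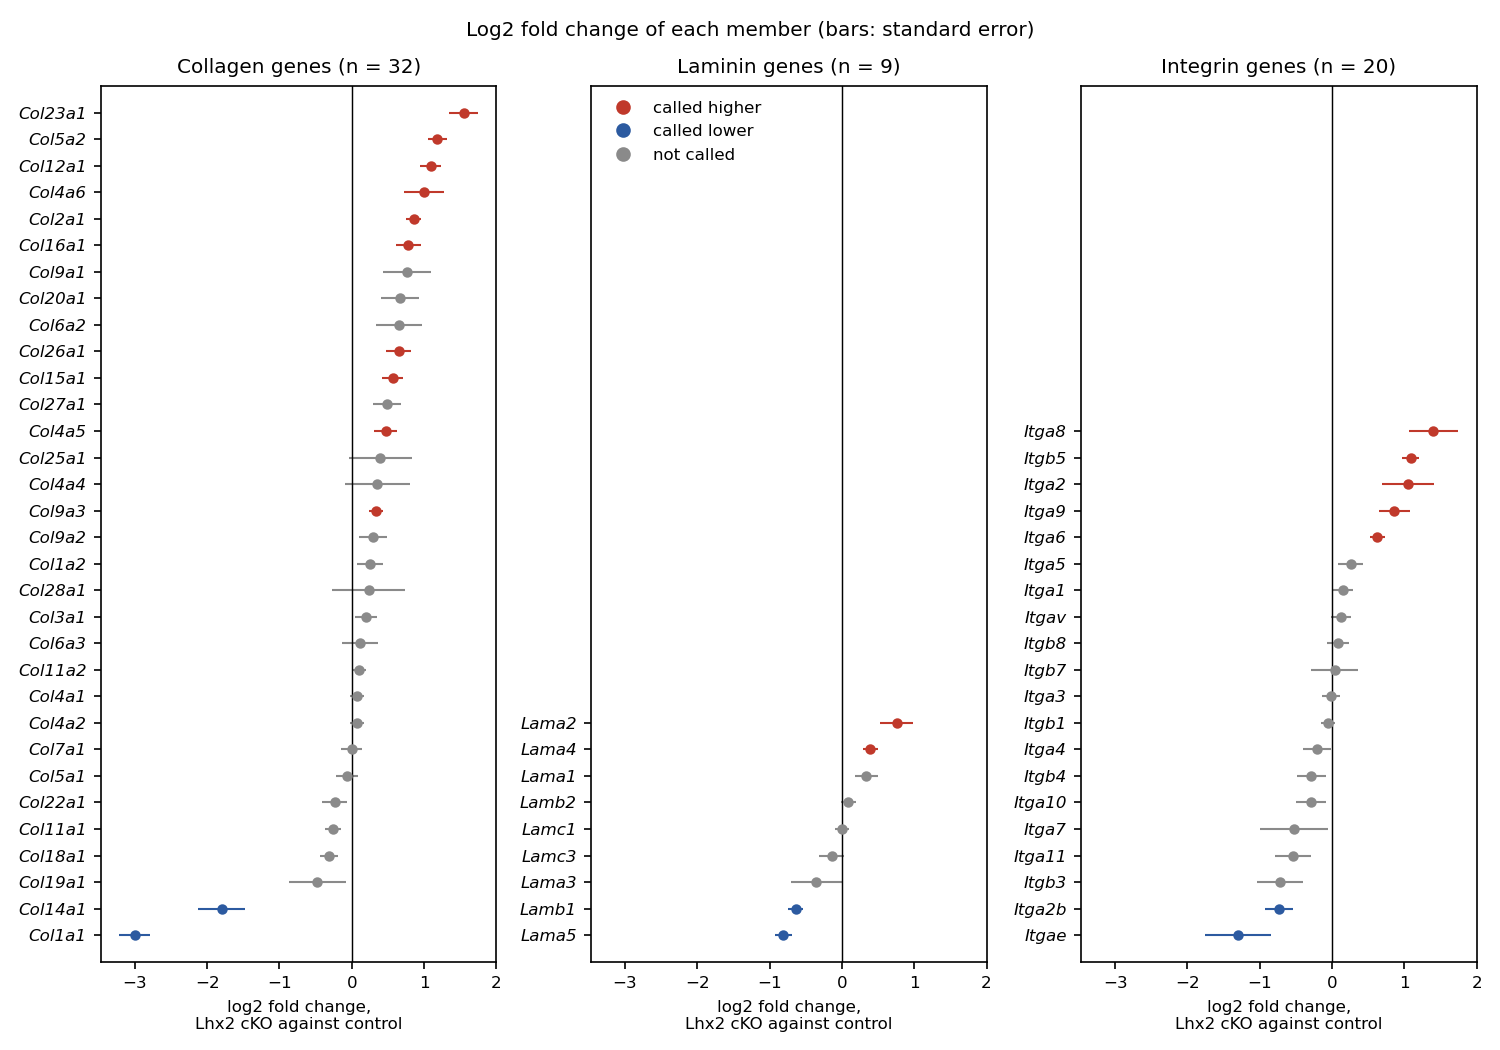
Log2 fold change in Lhx2 cKO relative to control (x axis) for each of the 32 collagen, 9 laminin and 20 integrin genes (y axis), with bars for the standard error and colours for called higher, called lower and not called. The collagens lie mostly right of 0, with the largest falls those of Col1a1 at -3.001 and Col14a1 at -1.80, while laminins and integrins spread to both sides.

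The largest fall in the 3 families was that of Col1a1 (ENSMUSG00000001506.11), which encodes the major chain of type I collagen, the main fibrillar collagen of connective tissue. It was at 25.7 and 23.05 CPM in control 1 and 2 and at 4.44 and 1.65 CPM in Lhx2 cKO 1 and 2. Both Lhx2 cKO libraries were far below both control libraries, and they also differed from each other, with 624 and 576 counts in control against 101 and 38 in Lhx2 cKO. The means were 24.4 ± 1.90 CPM in control and 3.05 ± 1.97 CPM in Lhx2 cKO (SD, n = 2), with Lhx2 cKO at 12.5% of control. On the log2 scale the change was -3.001 (SE 0.216, edgeR adjusted p 2.57e-14). It was -3.88 (adjusted p 1.09e-49) without Lhx2 cKO 1 and -2.46 (adjusted p 2.29e-28) without Lhx2 cKO 2, so the size of the fall depended on which of these libraries was read, and it was called in both fits.

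The partner chain was not called. Col1a2, which completes the type I collagen heterotrimer, was at 8.17 and 7.44 CPM in control 1 and 2 and at 9.36 and 9.23 CPM in Lhx2 cKO 1 and 2. The Lhx2 cKO libraries both lay slightly above both control libraries, but the log2 fold change was 0.25 (edgeR adjusted p 0.364), not called, with a 95% interval of -0.12 to 0.62. The ratio of Col1a1 to Col1a2 CPM was 3.15 and 3.10 in control against 0.474 and 0.179 in Lhx2 cKO. With 2 libraries against 2, an exact permutation test of this ratio could not go below a two-sided p of 0.333, and it was not run. Col3a1, the fibrillar collagen that is the ligand of the radial glial receptor Adgrg1, was at 12.9 and 14.96 CPM in control 1 and 2 and at 15.2 and 16.7 CPM in Lhx2 cKO 1 and 2. It was not called either, at 0.20 (edgeR adjusted p 0.392), with an interval of -0.11 to 0.50. Of the 5 listed meningeal fibroblast markers analysed, Pdgfra, which also marks oligodendrocyte precursors, rose and the other 4 were not called. The share called was 20%, near the 20.8% of all genes tested. The summed level of the 5 was 17.98 to 19.7 CPM in control and 22.9 to 29.6 CPM in Lhx2 cKO, and none was at 0 counts in any library. The part of these cells in the fall of Col1a1 was not tested. In whole tissue, fewer cells of a type and less RNA per cell cannot be told apart, here and in the results that follow.

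Col14a1, a collagen that decorates the surface of collagen fibrils, was the other collagen to fall. It was at 4.91 and 4.56 CPM in control 1 and 2 and at 1.36 and 1.35 CPM in Lhx2 cKO 1 and 2, with close agreement within each group and no overlap between them. The log2 fold change was -1.80 (SE 0.320, edgeR adjusted p 3.85e-05).

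Among the other fibrillar collagens 2 rose. Col5a2 (ENSMUSG00000026042.17), a chain of the type V collagen that sets the diameter of type I fibrils, was at 12.7 and 13.96 CPM in control 1 and 2 and at 28.1 and 32.5 CPM in Lhx2 cKO 1 and 2. Each Lhx2 cKO library held more than 2 times the level of either control library, and the means were 13.4 ± 0.863 CPM in control and 30.3 ± 3.07 CPM in Lhx2 cKO (SD, n = 2). Its log2 fold change was 1.18 (SE 0.132, edgeR adjusted p 4.04e-09). Its partner Col5a1 was at 14.4 and 13.4 CPM in control against 12.3 and 14.3 CPM in Lhx2 cKO, with overlapping groups and -0.06 (edgeR adjusted p 0.825).

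Col2a1 (ENSMUSG00000022483.18), the fibrillar collagen of cartilage that is also made by early neuroepithelium, was at 43.1 and 50.5 CPM in control 1 and 2 and at 83.3 and 86.4 CPM in Lhx2 cKO 1 and 2. The groups were well apart, with means of 46.8 ± 5.23 CPM in control and 84.8 ± 2.18 CPM in Lhx2 cKO (SD, n = 2), and the log2 fold change was 0.86 (SE 0.102, edgeR adjusted p 1.71e-08). The type XI chains that form mixed fibrils with it were not called. Col11a1 was at 41.7 and 47.01 CPM in control against 40.4 and 33.6 CPM in Lhx2 cKO, lower in both Lhx2 cKO libraries but not called (log2 fold change -0.26, edgeR adjusted p 0.0852). It passed the threshold without control 1 and without Lhx2 cKO 1. Col11a2 was at 49.4 and 46.4 CPM in control against 51.6 and 51.1 CPM in Lhx2 cKO (log2 fold change 0.10, edgeR adjusted p 0.535), slightly higher in both Lhx2 cKO libraries. The remaining fibrillar chain, Col27a1, was higher in both Lhx2 cKO libraries and was not called (log2 fold change 0.49, edgeR adjusted p 0.0733).

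Fibril-associated collagens, which sit on fibrils and link them to other matrix, gave 3 rises and the fall of Col14a1 among 9 genes. Their share called was 44.4%, beside 20.8% of all genes tested. Col12a1 was at 10.4 and 12.3 CPM in control 1 and 2 and at 24.2 and 24.3 CPM in Lhx2 cKO 1 and 2. Its level in Lhx2 cKO was about the same in both libraries, well above control, and the log2 fold change was 1.09 (SE 0.143, edgeR adjusted p 1.38e-07). Col16a1 was at 7.13 and 7.12 CPM in control against 12.8 and 11.8 CPM in Lhx2 cKO, also without overlap, with a log2 fold change of 0.78 (SE 0.176, edgeR adjusted p 9.40e-04). Type IX collagen is built from the chains of Col9a1, Col9a2 and Col9a3, and these were measured at very different levels. Col9a3 had the highest level per length of any collagen, 31.1 CPM per kb of gene length averaged over both groups, against 2.68 for Col9a2 and 0.507 for Col9a1. Col9a3 was at 99.4 and 113 CPM in control 1 and 2 and at 131 and 136 CPM in Lhx2 cKO 1 and 2, a small rise of 0.34 (SE 0.0957, edgeR adjusted p 0.00901) that was not called without control 1 (log2 fold change 0.24, adjusted p 0.196) or without Lhx2 cKO 2 (log2 fold change 0.31, adjusted p 0.0733). In the annotation used for overlaps, 6.07% of its exon bases are shared with Tcfl5 on the other strand, and with no stated strand setting such reads cannot be told apart. Col9a1 (0.76), Col9a2 (0.29), Col19a1 (-0.47), Col20a1 (0.67) and Col22a1 (-0.24) were not called, where each value is a log2 fold change. Col20a1 passed the threshold with upper-quartile factors, without control 1 and without Lhx2 cKO 1.

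The transmembrane collagen Col23a1 (ENSMUSG00000063564.14) had the largest rise of any member. It was at 4.25 and 3.36 CPM in control 1 and 2 and at 10.8 and 11.4 CPM in Lhx2 cKO 1 and 2, so that both Lhx2 cKO libraries held more than 2 times the level of either control library. On the log2 scale the difference was 1.55 (SE 0.206, edgeR adjusted p 1.95e-07). Col26a1, a short secreted collagen, was at 8.70 and 7.002 CPM in control against 12.5 and 12.1 CPM in Lhx2 cKO, with a log2 fold change of 0.65 (SE 0.176, edgeR adjusted p 0.00609), and was not called without control 2 (log2 fold change 0.50, adjusted p 0.0944). Col25a1, the other transmembrane collagen measured, was at 1.40 and 0.960 CPM in control against 1.19 and 1.92 CPM in Lhx2 cKO, with overlapping groups (log2 fold change 0.39, edgeR adjusted p 0.581).

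None of the 4 collagens of beaded filaments and anchoring fibrils was called, beside 20.8% of all genes tested. Col6a2 and Col6a3, chains of the beaded filament, had log2 fold changes of 0.65 and 0.12. Col7a1, the anchoring fibril of skin, was at 16.2 and 14.7 CPM in control against 15.6 and 15.3 CPM in Lhx2 cKO, with overlapping groups and a log2 interval of -0.30 to 0.30. Col28a1 was at 1.69 and 0.400 CPM in control against 1.41 and 1.04 CPM in Lhx2 cKO, and its control libraries differed by more than the groups did.

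In the basement membrane the common type IV chains were not called, and the X-linked pair rose. Col4a1 and Col4a2, which together form the type IV network present in most basement membranes, were the most abundant collagens by CPM. Col4a1 was at 203 and 224 CPM in control 1 and 2 and at 209 and 242 CPM in Lhx2 cKO 1 and 2. Col4a2 was at 171 and 179 CPM in control 1 and 2 and at 172 and 196 CPM in Lhx2 cKO 1 and 2. For both genes the groups overlapped, with log2 fold changes of 0.08 (edgeR adjusted p 0.642) and 0.07 (edgeR adjusted p 0.652). The 95% intervals, as folds, were 0.919 to 1.21 and 0.919 to 1.20, which bound the change these libraries allow. The ratio of Col4a1 to Col4a2 CPM was between 1.19 and 1.25 in all 4 libraries.

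Col4a6 and Col4a5 encode chains of a type IV network found in fewer basement membranes. Col4a6 was at 2.89 and 2.52 CPM in control 1 and 2 and at 6.07 and 4.74 CPM in Lhx2 cKO 1 and 2, a log2 fold change of 0.998 (SE 0.273, edgeR adjusted p 0.00656). Col4a5 was at 9.61 and 11.4 CPM in control 1 and 2 and at 14.4 and 14.7 CPM in Lhx2 cKO 1 and 2, a log2 fold change of 0.47 (SE 0.160, edgeR adjusted p 0.0306). Both genes were higher in each Lhx2 cKO library than in either control library. The call of Col4a6 was lost without Lhx2 cKO 1 (log2 fold change 0.81, adjusted p 0.104). That of Col4a5 was lost in DESeq2 (adjusted p 0.0829) and without control 1 (log2 fold change 0.34, adjusted p 0.285), Lhx2 cKO 1 (log2 fold change 0.48, adjusted p 0.0733) or Lhx2 cKO 2 (log2 fold change 0.45, adjusted p 0.141). Col4a4 was at 1.20 and 0.960 CPM in control against 1.76 and 1.001 CPM in Lhx2 cKO and was not called.

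Col4a1 and Col4a2, and likewise Col4a6 and Col4a5, lie head to head, and the 2 genes of each pair had the same call in edgeR's test with all libraries. In DESeq2 Col4a6 was called and Col4a5 was not. In RefSeq's GRCm38.p6 annotation the start of Col4a1 lies on the minus strand and that of Col4a2 on the plus strand of chromosome 8, and the starts are 21 bases apart. Those of Col4a6 and Col4a5 are 1343 bases apart on chromosome X, again pointing away from each other. The 250 bases before each start of the pair that rose are shown, since they lie between the genes. They were read from RefSeq's promoter table, on GRCm38.p6, and capitals mark matches to GGGCGG or CCAAT on either strand.
Col4a5, chrX:141475169-141475418, plus strand: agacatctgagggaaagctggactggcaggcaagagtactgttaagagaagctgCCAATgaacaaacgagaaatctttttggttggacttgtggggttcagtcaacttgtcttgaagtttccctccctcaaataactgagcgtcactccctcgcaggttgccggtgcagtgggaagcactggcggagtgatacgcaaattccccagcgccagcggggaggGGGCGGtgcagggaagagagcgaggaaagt
Col4a6, chrX:141474077-141474326, minus strand: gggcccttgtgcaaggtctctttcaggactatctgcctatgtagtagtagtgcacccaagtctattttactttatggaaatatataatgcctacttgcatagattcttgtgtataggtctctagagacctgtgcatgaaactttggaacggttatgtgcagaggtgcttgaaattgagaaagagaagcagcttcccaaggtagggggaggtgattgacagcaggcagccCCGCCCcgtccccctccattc
Each of these stretches holds 1 match to the GC box GGGCGG, and that of Col4a5 holds 1 match to the CCAAT box, while neither holds the LIM-homeodomain core TAATTA or the TATA box TATAAA.

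Promoter windows from 250 bases before to 50 bases after the start were found for 43 of the 61 members, 13 of them called. No window was found for the called members Col1a1, Col5a2, Col2a1, Col12a1, Col14a1, Col9a3, Col26a1, Lama4, Itga6 and Itgae, so these were not searched. The core TAATTA, searched on both strands, was in the window of 1 member, Col11a2, and of 0 of the 13 called members, beside 5.29% of the 32851 windows in the table. With a share that low, 0 of 13 says little about the called members. The GC box GGGCGG was in the windows of 26 members (60.5%), 9 of them called, beside 35.7% of all windows. CCAAT was found for 13 members (30.2%, beside 37.4%) and TATAAA for 2, Col11a2 and Col3a1 (4.65%, beside 13.6%). A match is a run of letters and not a shown binding site. The members' shares count genes with a match in any of their windows. The shares of all windows count single windows, of genes measured here or not, so the shares are not of like units.

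Multiplexins are basement membrane collagens that carry sugar chains. Col15a1, known from vessel and muscle basement membranes, was at 11.5 and 15.2 CPM in control 1 and 2 and at 18.3 and 21.3 CPM in Lhx2 cKO 1 and 2. Both Lhx2 cKO libraries were above both control libraries, and the log2 fold change was 0.56 (SE 0.151, edgeR adjusted p 0.00540). It was 0.37 (adjusted p 0.176) without control 1 and 0.45 (adjusted p 0.0955) without Lhx2 cKO 2, neither of them called. Col18a1, found in vascular and epithelial basement membranes, was at 31.1 and 41.9 CPM in control 1 and 2 and at 27.1 and 31.6 CPM in Lhx2 cKO 1 and 2. Its groups overlapped and it was not called (log2 fold change -0.32, edgeR adjusted p 0.0580). It was called lower with upper-quartile factors, library totals, the replicate block, without control 1 and without Lhx2 cKO 2.

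**Figure D2:**
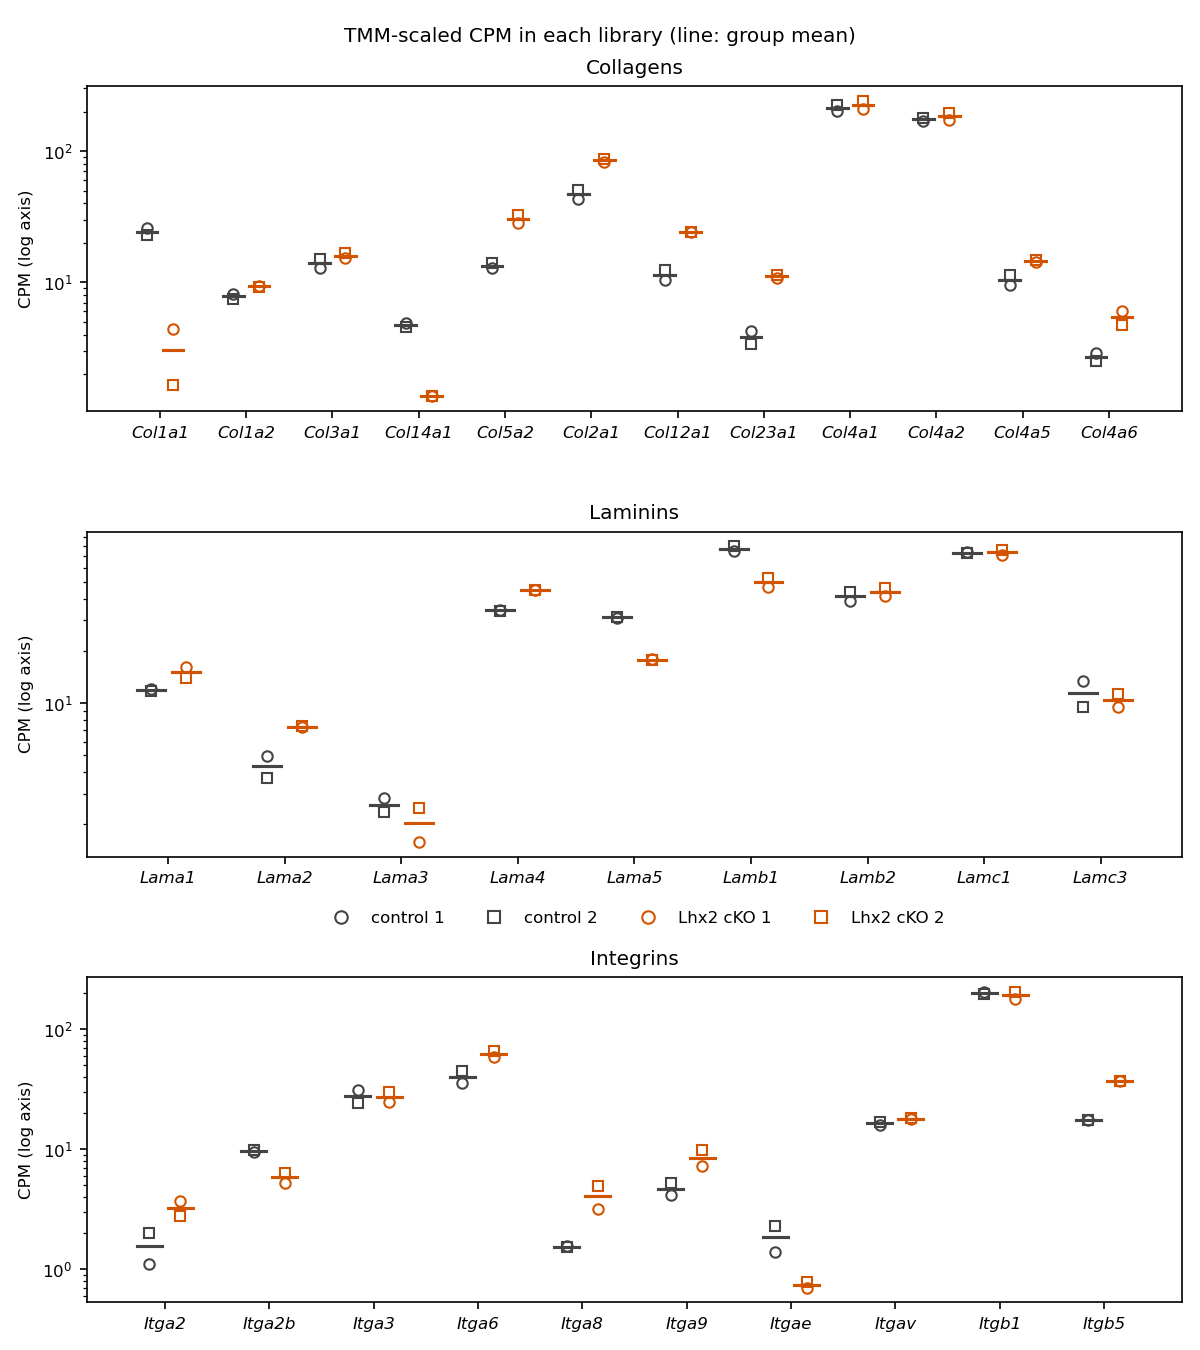
TMM-scaled CPM on a log axis (y axis) in each of the 4 libraries for selected collagens, all 9 laminins and selected integrins (x axis), with a line at each group mean. Col1a1 separates from Col1a2 and Col3a1, Lama5 and Lamb1 are lower and Lama4 and Lama2 higher in Lhx2 cKO, and the Itgb5 libraries of each group nearly coincide.

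Among the laminin alpha chains Lama5 fell, and Lama4 and Lama2 rose. The alpha chain decides which receptors a laminin binds. Lama5 (ENSMUSG00000015647.10), the alpha chain of the laminins of epithelial, pial and mature vessel basement membranes, was at 31.01 and 31.4 CPM in control 1 and 2 and at 17.98 and 17.6 CPM in Lhx2 cKO 1 and 2. Within each group the libraries differed by less than 1 CPM, and the groups were far apart, with means of 31.2 ± 0.252 CPM in control and 17.8 ± 0.245 CPM in Lhx2 cKO (SD, n = 2). Its log2 fold change was -0.81 (SE 0.122, edgeR adjusted p 2.53e-06), and Lhx2 cKO stood at 57.1% of control. Lama4 (ENSMUSG00000019846.12), the alpha chain of endothelial laminin, was at 34.2 and 34.1 CPM in control 1 and 2 and at 44.8 and 44.8 CPM in Lhx2 cKO 1 and 2. It was higher in both Lhx2 cKO libraries, with a log2 fold change of 0.39 (SE 0.105, edgeR adjusted p 0.00543). The ratio of Lama5 to Lama4 CPM was 0.906 and 0.919 in control against 0.401 and 0.393 in Lhx2 cKO.

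Lama2, the alpha chain of muscle and brain vessel laminin, was at 4.95 and 3.72 CPM in control 1 and 2 and at 7.25 and 7.40 CPM in Lhx2 cKO 1 and 2. The log2 fold change was 0.76 (SE 0.226, edgeR adjusted p 0.0126), and it was not called without control 2 (log2 fold change 0.57, adjusted p 0.148) or without Lhx2 cKO 2 (log2 fold change 0.74, adjusted p 0.0704). Lama1, the alpha chain of the first laminin of the embryo and of the pial surface, was at 12.04 and 11.8 CPM in control 1 and 2 and at 16.2 and 13.9 CPM in Lhx2 cKO 1 and 2. The Lhx2 cKO libraries were both above both controls, but the difference was not called (log2 fold change 0.34, edgeR adjusted p 0.120). Lama3, the alpha chain of epidermal laminin, was at 2.85 and 2.36 CPM in control against 1.58 and 2.48 CPM in Lhx2 cKO, with overlapping groups.

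Of the 4 beta and gamma chains Lamb1 fell, beside 9.17% of all genes tested, and the others were not called. Lamb1 (ENSMUSG00000002900.18), the beta chain of most embryonic laminins, was at 75.02 and 79.9 CPM in control 1 and 2 and at 46.8 and 52.8 CPM in Lhx2 cKO 1 and 2. Both Lhx2 cKO libraries were well below both control libraries, the means were 77.5 ± 3.45 CPM in control and 49.8 ± 4.27 CPM in Lhx2 cKO (SD, n = 2), and the log2 fold change was -0.64 (SE 0.101, edgeR adjusted p 5.86e-06). The alternative beta chain Lamb2 was at 38.5 and 43.7 CPM in control 1 and 2 and at 41.2 and 46.2 CPM in Lhx2 cKO 1 and 2, with overlapping groups (log2 fold change 0.09, edgeR adjusted p 0.615, interval -0.13 to 0.30). For Lamb1 against Lamb2 the ratio of CPM was 1.95 and 1.83 in control against 1.13 and 1.14 in Lhx2 cKO. Lamc1, the gamma chain of nearly all laminins, was at 73.8 and 73.3 CPM in control 1 and 2 and at 71.2 and 76.4 CPM in Lhx2 cKO 1 and 2. Its log2 fold change was 0.01 (edgeR adjusted p 0.979), with a 95% interval of 0.875 to 1.15 as a fold. The ratio of Lamb1 to Lamc1 CPM was 1.02 and 1.09 in control against 0.656 and 0.691 in Lhx2 cKO. Lamc3 was at 13.4 and 9.44 CPM in control against 9.45 and 11.3 CPM in Lhx2 cKO, with overlapping groups (log2 fold change -0.14, edgeR adjusted p 0.632).

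Endothelial markers rose beside some of these genes. Of 13 endothelial markers 12 were analysed, of which 8 rose (66.7%, beside 11.6% of all genes tested) and 0 fell. Their median log2 fold change was 0.49. Their summed level was 216 to 252 CPM in control and 314 to 363 CPM in Lhx2 cKO, and none was at 0 counts in any library. Cldn5, the tight junction protein of brain endothelium, was at 0.70 (edgeR adjusted p 1.09e-06), and Cdh5, the cadherin of endothelial junctions, was at 0.72 (edgeR adjusted p 3.00e-04) on the log2 scale. Of 10 pericyte and mural cell markers analysed 3 were called (30%, beside 20.8% of all genes tested). Cspg4, which also marks oligodendrocyte precursors, and Vtn, also listed as a basement membrane partner, rose, and Rgs5 fell. The summed level of the 10 was 271 to 290 CPM in control and 270 to 282 CPM in Lhx2 cKO. The part of these cells in the rises of Lama4, Lama2, Col15a1 and Itga6 was not tested. Other chains described above as part of vessel or most basement membranes did not rise. Lama5 fell (log2 fold change -0.81), and Col4a1 (0.08), Col4a2 (0.07) and Col18a1 (-0.32) were not called.

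Of the 6 integrin beta chains only Itgb5 was called (16.7%, beside 20.8% of all genes tested), in the test with all libraries. Itgb1, the beta chain shared by the laminin, collagen and most fibronectin receptors, had the highest level per length of all 61 members, 47.98 CPM per kb averaged over both groups. It was at 204 and 196 CPM in control 1 and 2 and at 179 and 205 CPM in Lhx2 cKO 1 and 2. The groups overlapped, with a log2 fold change of -0.06 (edgeR adjusted p 0.717) and a 95% interval of 0.837 to 1.10 as a fold.

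Itgb5 (ENSMUSG00000022817.16), which pairs with Itgav in a receptor for vitronectin, was at 17.4 and 17.6 CPM in control 1 and 2 and at 37.3 and 37.00 CPM in Lhx2 cKO 1 and 2. The libraries of each group differed by less than 1 CPM, and the Lhx2 cKO libraries held more than 2 times the control level, with means of 17.5 ± 0.114 CPM in control and 37.2 ± 0.221 CPM in Lhx2 cKO (SD, n = 2). Its log2 fold change was 1.09 (SE 0.118, edgeR adjusted p 2.10e-09). Itgav itself, the alpha chain that also pairs with Itgb1, Itgb3 and Itgb8, was at 16.04 and 16.8 CPM in control 1 and 2 and at 17.8 and 18.1 CPM in Lhx2 cKO 1 and 2, a difference that was not called (log2 fold change 0.13, edgeR adjusted p 0.581, interval -0.16 to 0.41). The ratio of Itgb5 to Itgav CPM was 1.09 and 1.05 in control against 2.10 and 2.05 in Lhx2 cKO. Itgb5 is also made by microglia. All 10 microglial markers were analysed, and 9 of them rose (90%, beside 11.6% of all genes tested). Their summed level was 119 to 121 CPM in control and 244 to 270 CPM in Lhx2 cKO. Of the leucocyte integrin chains, listed apart, Itgal rose, Itgam fell (log2 fold change -1.04, edgeR adjusted p 0.0253) and Itgb2 was not called. The part of microglia in the rise of Itgb5 was not tested.

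The other beta chains were not called. Itgb8, which with Itgav activates latent TGF-beta and is made by radial glia, was at 14.97 and 22.6 CPM in control against 19.1 and 20.7 CPM in Lhx2 cKO (log2 fold change 0.08, edgeR adjusted p 0.747). Itgb3, the partner of Itgav and Itga2b, was at 3.79 and 3.12 CPM in control against 1.98 and 2.22 CPM in Lhx2 cKO, lower in both Lhx2 cKO libraries (log2 fold change -0.72, edgeR adjusted p 0.110). Itgb4, the partner of Itga6 in epithelia, and Itgb7, a leucocyte chain, had log2 fold changes of -0.28 and 0.04.

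Of the laminin-binding alpha chains Itga6 rose, and Itga3 and Itga7 were not called. Itga6 (ENSMUSG00000027111.17) was at 35.9 and 44.9 CPM in control 1 and 2 and at 59.2 and 65.6 CPM in Lhx2 cKO 1 and 2. The Lhx2 cKO libraries were both above both control libraries, the means were 40.4 ± 6.40 CPM in control and 62.4 ± 4.52 CPM in Lhx2 cKO (SD, n = 2), and the log2 fold change was 0.63 (SE 0.108, edgeR adjusted p 2.28e-05). It stayed called without each library in turn, between 0.46 without control 1 and 0.80 without control 2. Itga3 was at 30.97 and 24.5 CPM in control 1 and 2 and at 24.6 and 30.2 CPM in Lhx2 cKO 1 and 2. Its groups overlapped (log2 fold change -0.02, edgeR adjusted p 0.937), and its interval was 0.827 to 1.18 as a fold. Itga7, the laminin receptor of muscle, was at 1.03 and 1.68 CPM in control against 1.14 and 0.740 CPM in Lhx2 cKO, also with overlapping groups (log2 fold change -0.53, edgeR adjusted p 0.471).

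Of the alpha chains that bind RGD motifs, Itga8 rose and Itga2b fell. Itga8 was at 1.57 and 1.52 CPM in control 1 and 2 and at 3.21 and 4.96 CPM in Lhx2 cKO 1 and 2. Its control libraries were nearly equal and its Lhx2 cKO libraries differed, and the log2 fold change was 1.40 (SE 0.334, edgeR adjusted p 0.00174). Without Lhx2 cKO 2 it was 1.05 (adjusted p 0.110), not called. In the annotation 5.05% of its exon bases are shared with an antisense transcript, E030013I19Rik. Itga2b, the alpha chain of the platelet fibrinogen receptor, was at 9.53 and 9.84 CPM in control 1 and 2 and at 5.27 and 6.40 CPM in Lhx2 cKO 1 and 2. Both Lhx2 cKO libraries were below both control libraries (log2 fold change -0.73, SE 0.195, edgeR adjusted p 0.00531), and the call was lost without Lhx2 cKO 1 (log2 fold change -0.60, adjusted p 0.0668). The platelet markers listed (Pf4, Ppbp, Gp1bb and Gp9) were not analysed here, so platelets were not followed by these markers. Of 8 red blood cell markers analysed 5 fell (62.5%, beside 9.17% of all genes tested) and 1, the embryonic globin Hbb-y, rose. Their summed level was 2359 to 3200 CPM in control and 1921 to 2154 CPM in Lhx2 cKO. Their part in the fall of Itga2b was not tested. Itga5, the classical fibronectin receptor chain, was at 9.44 and 13.6 CPM in control against 12.04 and 15.5 CPM in Lhx2 cKO and was not called.

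Of the 4 collagen-binding alpha chains 1 was called (25%, near the 20.8% of all genes tested). Itga1 was at 14.3 and 17.1 CPM in control against 17.3 and 17.4 CPM in Lhx2 cKO, and was not called (log2 fold change 0.15, edgeR adjusted p 0.533). Itga2, which binds collagen on platelets and epithelia, was at 1.11 and 2.001 CPM in control 1 and 2 and at 3.69 and 2.79 CPM in Lhx2 cKO 1 and 2, with 27 and 50 counts in control against 84 and 64 in Lhx2 cKO. Its log2 fold change was 1.05 (SE 0.361, edgeR adjusted p 0.0322). The call was lost in DESeq2 (adjusted p 0.0793), without control 1 (log2 fold change 0.68, adjusted p 0.311) and without Lhx2 cKO 1 (log2 fold change 0.83, adjusted p 0.210). Itga10 and Itga11, collagen receptors of cartilage and of fibroblasts, were lower in both Lhx2 cKO libraries and were not called, at -0.29 and -0.54 on the log2 scale. Of the exon bases of Itga10, 33.5% are shared with Gm42957 on the same strand, so its counts are uncertain.

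Of the remaining alpha chains Itga9 rose, Itgae fell and Itga4 was not called. Itga9, a receptor for tenascin-C and osteopontin, was at 4.17 and 5.20 CPM in control 1 and 2 and at 7.21 and 9.84 CPM in Lhx2 cKO 1 and 2. The fitted log2 fold change was 0.86 (SE 0.217, edgeR adjusted p 0.00311). Without control 1 it was 0.70 (adjusted p 0.0534) and without Lhx2 cKO 2 it was 0.62 (adjusted p 0.149), neither called. Itgae, the alpha chain of tissue lymphocytes that binds E-cadherin, was at 1.40 and 2.28 CPM in control 1 and 2 and at 0.703 and 0.784 CPM in Lhx2 cKO 1 and 2, with 34 and 57 counts in control against 16 and 18 in Lhx2 cKO. On the log2 scale the difference was -1.30 (SE 0.458, edgeR adjusted p 0.0367). This call on low counts was lost in DESeq2 (adjusted p 0.0969) and without control 2, Lhx2 cKO 1 or Lhx2 cKO 2, and Itgae was not tested with a mean count of at least 50. Of 10 leucocyte and platelet markers 4 were analysed and 3 of them called (75%, beside 20.8% of all genes tested). Itgal and Ptprc were higher, Itgam lower and Itgb2 not called, with a summed 6.72 to 6.97 CPM in control and 8.44 to 8.71 CPM in Lhx2 cKO. Their part in the fall of Itgae was not tested. Itga4, the receptor chain for fibronectin and Vcam1, was at 8.66 and 8.28 CPM in control against 7.95 and 6.75 CPM in Lhx2 cKO (log2 fold change -0.20, edgeR adjusted p 0.499), and 8.04% of its exon bases are shared with Cerkl on the other strand.

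**Figure D3:**
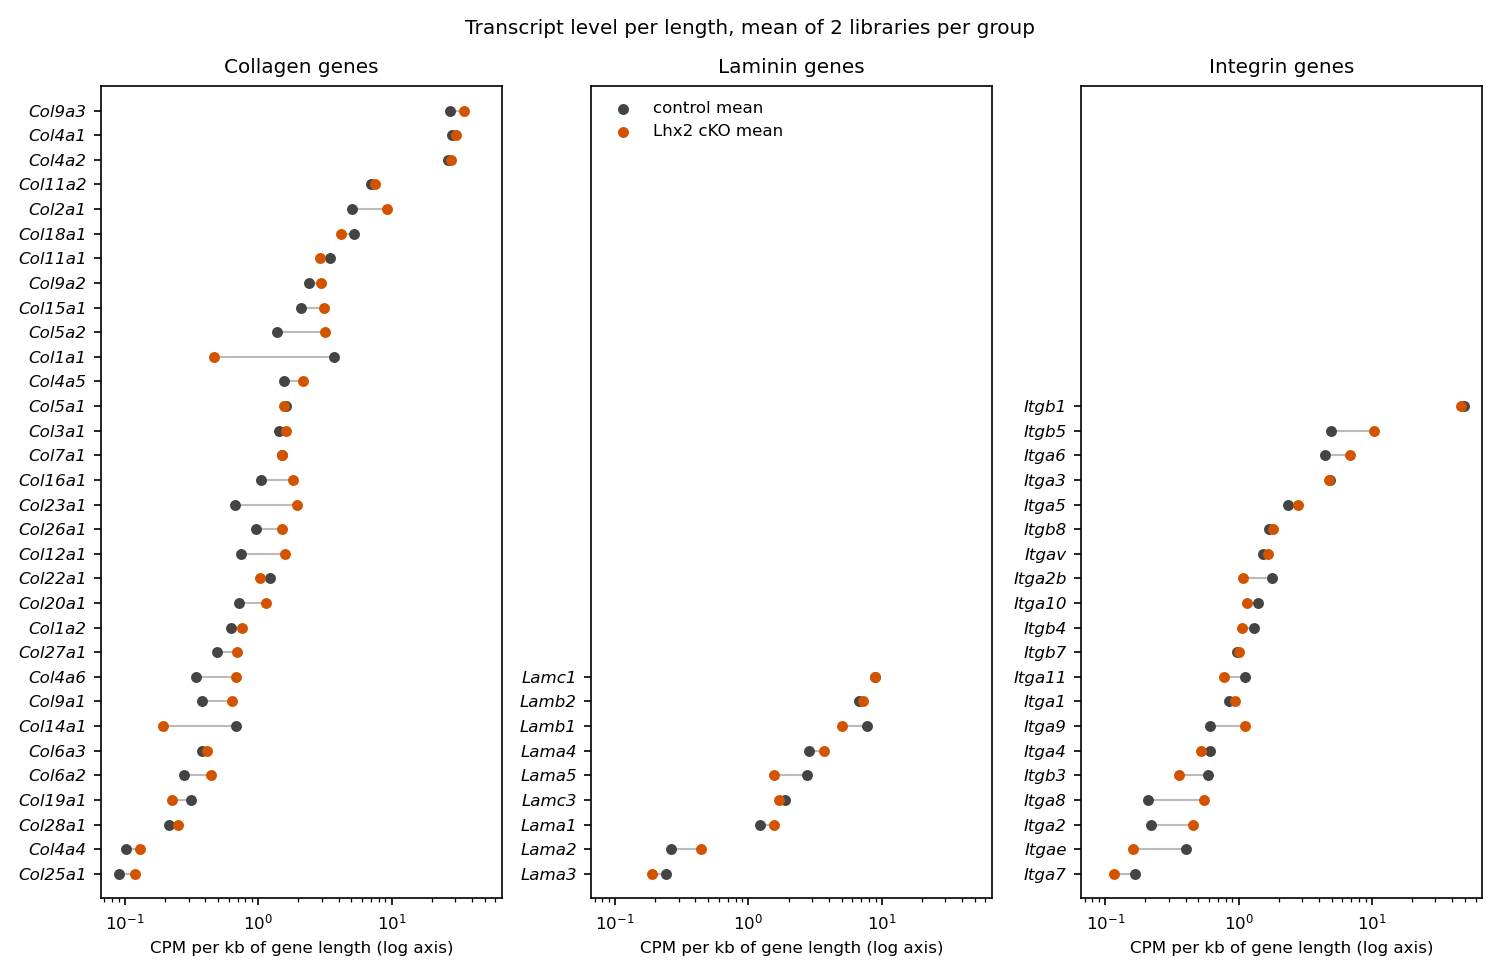
Level per length, as CPM per kb of the deposited gene length on a log axis (x axis), for each member (y axis), with 1 point for the control mean and 1 for the Lhx2 cKO mean, each of 2 libraries. Itgb1 is highest at 47.98 on average, followed by Col9a3, Col4a1 and Col4a2, and Col1a1 has the widest gap between the points.

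Compared per length, the families were led by few genes. Among collagens Col9a3 (31.1 CPM per kb), Col4a1 (29.4) and Col4a2 (27.1) stood far above the next genes, Col11a2 (7.22) and Col2a1 (7.12), all as means of both groups. Among laminins Lamc1 (8.91), Lamb2 (6.97) and Lamb1 (6.42) were above the alpha chains, of which Lama4 (3.27) and Lama5 (2.15) led. Among integrins Itgb1 was followed by Itgb5 (7.69), Itga6 (5.62) and Itga3 (4.83). Of these leading genes Itgb1, Lamc1, Lamb2, Col4a1, Col4a2, Col11a2 and Itga3 were not called.

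Genes that act with these families were described from 6 lists, whose shares of called genes are read beside the 20.8% called, 11.6% higher and 9.17% lower over all genes tested. For collagen processing 29 of 33 listed genes were analysed, of which 8 rose (27.6%) and 0 fell (median log2 fold change 0.21). Sparc, a collagen-binding matrix protein, rose from 133 to 238 CPM on average, a log2 fold change of 0.83 (edgeR adjusted p 2.59e-08). Tll2, a protease related to Bmp1, was at 2.32 (edgeR adjusted p 1.73e-06), and Adamts2 and Adamts3, which trim the ends of procollagens, were at 0.77 (edgeR adjusted p 2.78e-06) and 0.69 (edgeR adjusted p 9.99e-06), all log2 fold changes. For basement membrane partners 20 of 21 were analysed, of which 7 rose (35%) and 4 fell (20%; median 0.27). Fbln2, a fibulin that binds laminin and nidogen, rose from 6.82 to 27.9 CPM (log2 fold change 2.03, edgeR adjusted p 1.40e-13), and Smoc1 and Vwa1, matrix proteins of basement membranes, were at 0.83 (edgeR adjusted p 9.92e-09) and 0.52 (edgeR adjusted p 2.49e-04). Fn1, fibronectin, fell from 175 to 114 CPM (log2 fold change -0.62, edgeR adjusted p 8.25e-06), and the other genes that fell were Hspg2, Pxdn and Fras1.

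Dystroglycan, the other main laminin receptor, needs a sugar chain added by a set of enzymes. Of 17 such genes 15 were analysed, of which 3 rose and 0 fell (median log2 fold change 0.22), a share of 20% called that is near the 20.8% over all genes, among them Dpm3 (log2 fold change 0.44, edgeR adjusted p 0.00884) and Rxylt1 (log2 fold change 0.36, edgeR adjusted p 0.0199). Rxylt1 lost its call whichever library was left out, and Dpm3 without Lhx2 cKO 2 (adjusted p 0.376). Among other collagen and laminin receptors 8 of 10 were analysed, with 1 called higher (12.5%) and 3 called lower (37.5%; median -0.12). Adgrg1, the radial glial receptor for Col3a1, fell from 585 to 450.3 CPM (log2 fold change -0.38, edgeR adjusted p 0.00853). Ddr1, a collagen-binding kinase of epithelia and glia, was at -0.36 (edgeR adjusted p 0.00715), and the related Ddr2 of mesenchyme at 0.99 (edgeR adjusted p 0.0152). Rpsa, a ribosomal protein also known as a laminin receptor, was at -0.41 (edgeR adjusted p 0.00220). The calls of Adgrg1 and Rpsa were lost without control 1, at adjusted p 0.0532 and 0.0809, those of Adgrg1 and Ddr1 without Lhx2 cKO 1, at 0.1765 and 0.0722, and that of Ddr2 without control 2 and without either Lhx2 cKO library.

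Inside the cell, 30 of 32 listed integrin adaptors and signalling genes were analysed, of which 0 rose and 6 fell (median log2 fold change -0.15). The share called was 20%, near the 20.8% over all genes, and all of it was lower, where the share over all genes was 9.17%. The largest fall was that of Bcar1, a docking protein of focal adhesions, from 113 to 74.99 CPM (log2 fold change -0.60, edgeR adjusted p 7.62e-06). Parva, a link between integrins and actin, was at -0.54 (edgeR adjusted p 0.00916), and the actin cross-linkers Actn1 and Actn4 were at -0.39 (edgeR adjusted p 0.00735) and -0.29 (edgeR adjusted p 0.0304). The call of Parva was lost without control 2 (adjusted p 0.156), that of Actn1 without Lhx2 cKO 2 (0.126) and that of Actn4 without control 1 (0.334) or Lhx2 cKO 2 (0.311). All 19 matrix proteases and inhibitors were analysed, of which 10 rose (52.6%) and 1 fell (5.26%; median 0.39). Timp2, an inhibitor of matrix metalloproteases, was at 0.72 (edgeR adjusted p 4.57e-07), Mmp9 and Mmp17, which are such proteases, at 0.75 (edgeR adjusted p 8.03e-07) and 0.57 (edgeR adjusted p 5.78e-05), and Serpine2, an inhibitor of serine proteases, at 0.96 (edgeR adjusted p 7.61e-06). The gene that fell was Mmp14, a membrane-bound protease (log2 fold change -0.49, edgeR adjusted p 4.58e-04).

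**Figure D4:**
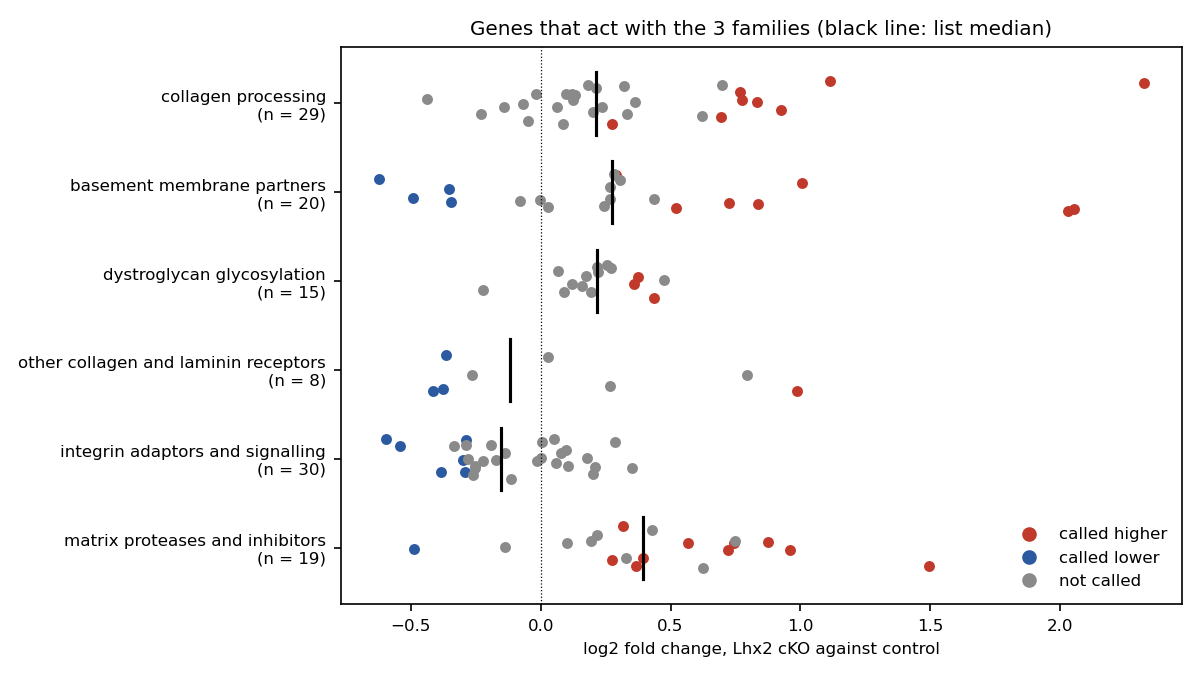
Log2 fold change in Lhx2 cKO relative to control (x axis) for the genes of 6 lists (y axis), 1 point per gene, coloured by call, with a black line at the list median and points spread vertically only to be seen. The medians run from -0.15 for integrin adaptors and signalling, where 6 genes fell and 0 rose, to 0.39 for matrix proteases and inhibitors, where 10 rose and 1 fell.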

How the data were processed

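Reads were trimmed with Trim Galore and counted with featureCounts of Subread, and edgeR was used, on mm39, per the submitters' processing notes; versions, strand and annotation are not given in the sources used here. The deposited table holds raw read counts per gene in 4 library columns. It also holds the authors' own log2 fold changes and mean log2 CPM, the authors' p-values and adjusted p-values, the authors' −log10 adjusted p-values and the deposited gene lengths in bases. Only the authors' fold change and adjusted p were read from these, apart from the lengths.

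Differential expression of Lhx2 cKO against control was tested on the whole table with edgeR 4.0.16 in R 4.3.3: TMM scaling (factors 0.973 to 1.02), filterByExpr with a minimum of 10 counts (1 gene removed), the quasi-likelihood test, two-sided, and Benjamini-Hochberg adjustment over 13288 genes. A standard error is |log2 fold change| over the root of the F statistic, and 95% intervals use the same degrees of freedom. CPM are TMM-scaled. The code was tested on simulated data. The replicates of a group differed by more than counting error: chi-square between them, per degree of freedom, was 13.9 in control and 14.3 in Lhx2 cKO. This check cannot tell libraries of separate embryos from separate preparations of the same RNA. The alternatives were RLE factors, upper-quartile factors, library totals, no filter, a minimum mean count of 50, a replicate block, DESeq2 1.42.0, limma-voom (limma 3.58.1), an adjusted p under 0.01, and leaving out each library.

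The members, the lists and the naming rule were chosen with earlier results of these data known. Named with values in each library were the called members by smallest p (up to 14 collagens, 6 laminins and 10 integrins), the 3 highest per length in each family and 13 chains known from the pial or vessel basement membrane; the other members were added for completeness, and of each list up to 4 called genes by smallest p, while the marker genes named, Mmp14, Hspg2, Pxdn and Fras1 were chosen after their values were seen. Exon overlaps are from GENCODE M21 (GRCm38), in which all 61 members were found, and promoters from RefSeq (GRCm38.p6). No coordinates were joined to the counts. One gene that the naming rule would name is not reported here.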

Additional observations from a re-analysis of the deposited data

How the results depend on the processing

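Of the 23 calls among members, 12 held under all 13 alternatives: Col1a1, Col5a2, Col2a1, Col12a1, Col23a1, Col14a1, Col16a1, Lama5, Lamb1, Lama4, Itgb5 and Itga6. The other 11 were lost under at least 1, and 20 held under the 7 alternatives that kept all libraries, all members and the threshold of 0.05, where DESeq2 lost Col4a5, Itga2 and Itgae. An adjusted p under 0.01 also left out Lama2.

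At a minimum mean count of 50, with fewer genes tested, the integrin median was 0.068. An adjusted p under 0.01 gave 1697 calls over the whole table. Over the fits without 1 library, in which the lone library is assumed to vary like the other group, calls over the whole table ranged from 1633 to 2396, collagen calls from 10 to 12, laminin calls from 3 to 4 and integrin calls from 4 to 6. The collagen median ranged from 0.20 to 0.35 and the integrin median from -0.13 to 0.13, each with fewer samples by construction. The libraries of 1 replicate number did not deviate together (correlation -0.005 across genes, which are not independent replicates). In the fit with the replicate block 13 collagens, 4 laminins and 7 integrins were called, and 2874 genes in all. No named gene that was called changed direction under these alternatives. With 2 libraries per group the precision is limited by their number, and 12 members, of which Itga2 and Itgae were called, had under 100 counts in every library.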

Other observations

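The integrin-like genes that the rule left out gave these values. Itgal, the alpha chain of a lymphocyte receptor, was at 0.907 and 0.840 CPM in control against 1.76 and 3.13 CPM in Lhx2 cKO, and rose with a log2 fold change of 1.48 (SE 0.424, edgeR adjusted p 0.00932). Itgam, the alpha chain of the complement receptor of myeloid cells, was at 2.85 and 3.92 CPM in control against 1.80 and 1.48 CPM in Lhx2 cKO, and fell with a log2 fold change of -1.04 (SE 0.344, edgeR adjusted p 0.0253). Their common partner Itgb2 was at 1.36 and 0.840 CPM in control against 1.45 and 1.57 CPM in Lhx2 cKO and was not called (log2 fold change 0.46, edgeR adjusted p 0.515). Itgb1bp1, a regulator of integrin activation, was not called (log2 fold change 0.18, edgeR adjusted p 0.453), and neither were Itgb1bp2 (log2 fold change -0.11, edgeR adjusted p 0.782), Itgb3bp (log2 fold change 0.06, edgeR adjusted p 0.914) and Itgbl1 (log2 fold change -0.23, edgeR adjusted p 0.704).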
